A study of Bos taurus with 8 samples.

Results

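Kinesins are motor proteins that move along microtubules with energy from ATP. In the granulosa cells of bovine dominant follicles, 35 kinesin genes named KIF with a number were measured, of 26773 probe sets in all. They were selected by gene symbol, from probe sets with a single symbol in the platform annotation, and each of the 35 genes had 1 such probe set. By their known roles 11 are mitotic kinesins, 13 are transport kinesins and 11 have other roles, such as in cilia and signalling. Granulosa cells were collected from 4 High A4 cows and 4 Control cows, crossbred beef cows of Red Angus and MARC III whose dominant follicles had follicular fluid at the high and at the low end of androstenedione (A4), the androgen that theca cells supply to granulosa cells. The labels call the groups high and low in androgen content, and all cows received the same estrous synchronization (gonadotropin releasing hormone, a progesterone device for 7 days and prostaglandin F2α at its removal), with ovariectomy about 36 h later. The cells were mural and cumulus granulosa cells of estrogen-active follicles, with a labelled purity of at least 94%. RNA of each cow was hybridized to 1 Affymetrix Bovine Gene 1.0 ST array, so the spread between replicates is the spread between cows.

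Mitotic kinesins are made mainly in dividing cells. They separate the spindle poles, move chromosomes on the spindle, trim microtubule ends and complete cytokinesis. Transport kinesins carry vesicles, mitochondria and other cargo in dividing and resting cells alike. Granulosa cells of the growing follicle divide, and their division slows as the follicle approaches ovulation.

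Values are normalized intensities in arbitrary units, and intensities of different genes were not compared. The noise threshold of 100 was exceeded by 9065 to 9403 probe sets per High A4 array and by 9551 to 9687 per Control array. A probe set was tested with limma when its mean was above 100 in at least 1 group, which held for 10120 probe sets and 20 of the 35 kinesins. Over the 10120, the median log2 fold change (High A4 over Control) was -0.16 and 74.3% were below 0, so kinesin values are read against that shift. Over the same 10120 probe sets the median was -0.0346 after quantile normalization and -0.0134 after cyclic loess. With each array centred on the median of all its probe sets it was -0.238, so the shift depended on the scaling. Over all 26773 probe sets without the noise filter it was -0.0063. Of the defining markers of granulosa cells, 15 of 16 were above the noise threshold and none passed the test in either direction. In bulk RNA, fewer dividing cells and less RNA per dividing cell cannot be told apart.

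All 20 kinesins tested had a negative log2 fold change, although 4 transport kinesins and KIF27 turned positive under other scalings, and the median of the mitotic ones lay farther below 0 than that of the transport ones. The difference between the class medians was -0.64 and was not tested. Of the 9 mitotic kinesins above the noise threshold, 1 fell at an adjusted p under 0.05 (KIF22) and 8 did not pass, where 0.623% of all probe sets tested fell and 1.56% rose. None of the 8 transport kinesins or the 3 other kinesins above the threshold passed in limma, with 2 transport and 1 other kinesin lower, and none higher, at an unadjusted p under 0.05 (17.1% of all probe sets tested were lower by that rule and 4.83% higher). The median log2 fold change was -0.82 over the 9 mitotic kinesins (0.566 times the Control level), -0.18 over the 8 transport kinesins and -0.22 over the 3 others. Over all members measured, the mitotic median was also -0.82 (11 genes) and the transport median -0.10 (13 genes). The study asked for a fold above 1.5 and p under 0.05, taken here as unadjusted. By this rule 7 of the 9 mitotic kinesins (KIF11, KIF15, KIF22, KIF4A, KIF2C, KIF18A and KIF23) and no transport kinesin were lower, both with limma, where 6.23% of the probe sets tested were lower, and with the methods' analysis of variance, where 4.38% were. Among mitotic kinesins, 3 of the 9 (KIF22, KIF2C and KIF18B) were above the noise threshold only in Control, so their place among the genes tested depended on the higher group.

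**Figure D1:**
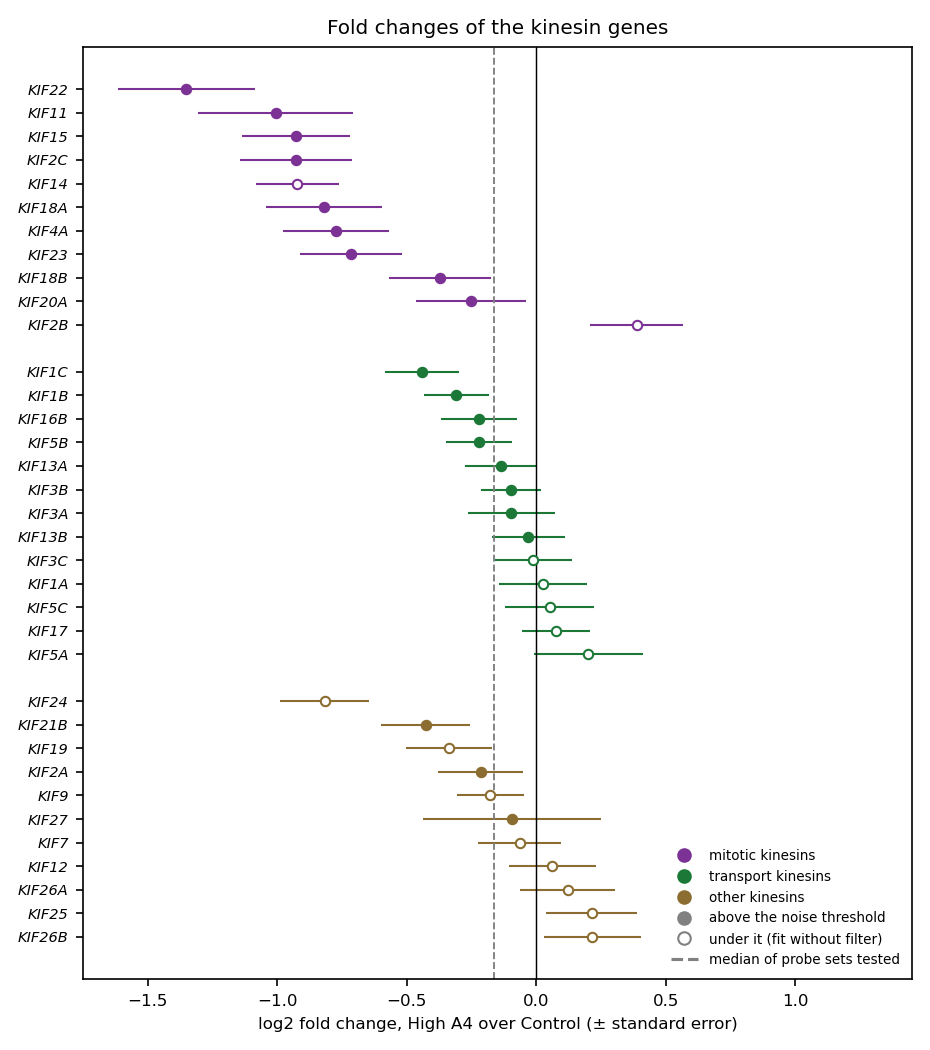
Log2 fold change of each of the 35 kinesin genes, High A4 over Control, by class, with the standard error from limma as bars. Filled points were above the noise threshold, open points come from the fit without a noise filter, and the dashed line is the median of the 10120 probe sets tested (-0.16), to which the filled points belong. The median of the fit of the open points was -0.0063 and is not drawn. Mitotic kinesins reach from -1.35 (KIF22) to 0.39 (KIF2B), and the tested transport kinesins from -0.44 (KIF1C) to -0.03 (KIF13B).

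Both motors that build the bipolar spindle had lower values in every High A4 cow than in any Control cow, but did not pass. KIF11 slides antiparallel microtubules apart and so separates the spindle poles. Its intensity was 163, 248, 373 and 505 in High A4 replicates 1 to 4, against 590, 683, 579 and 532 in Control replicates 1 to 4. The log2 fold change of KIF11 was -1.01 with a standard error of 0.30 and an adjusted p of 0.114. The High A4 cows spread over a wider range than the Control cows, and High A4 replicate 4 came close to Control replicate 4. KIF15 helps KIF11 to hold the poles apart. Its intensities were 123, 95.2, 145 and 190 in High A4, against 291, 285, 215 and 236 in Control. Its log2 fold change was -0.93 with a standard error of 0.21 and an adjusted p of 0.053.

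The chromokinesins bind chromosome arms and push them towards the spindle equator. KIF22, one of them, was the kinesin that fell. KIF22 intensities were 53.9, 42.7, 43.8 and 103 in High A4 replicates 1 to 4, against 152, 161, 153 and 117 in Control replicates 1 to 4. KIF22 averaged 60.7 ± 28.3 in High A4 and 146 ± 19.2 in Control (SD over 4 cows in each group). The log2 fold change of KIF22 was -1.35 with a standard error of 0.26 and an adjusted p of 0.0287, or 0.392 times the Control level. The size of this difference depended on the low intensities. With an offset of 50 on every intensity, KIF22 had -0.85 (adjusted p = 0.03) and KIF11 -0.88 (adjusted p = 0.103). High A4 replicates 1 to 3 lay within a narrow range below the noise threshold, and High A4 replicate 4 lay between them and the lowest Control cow. The call depended on the cows included. KIF22 passed without High A4 replicate 4 (adjusted p = 0.000573) or Control replicate 4 (adjusted p = 0.0467). Leaving out High A4 replicate 1, 2 or 3 gave an adjusted p of 0.0697, 0.0774 or 0.0964. Leaving out Control replicate 1, 2 or 3 gave 0.0947, 0.105 or 0.0714. KIF4A, the chromokinesin that also works in the central spindle, had 135, 137, 183 and 263 in High A4, against 296, 308, 277 and 304 in Control. The 4 Control cows were close together and all High A4 cows were below them (log2 fold change -0.77 with a standard error of 0.21, adjusted p = 0.0858).

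**Figure D2:**
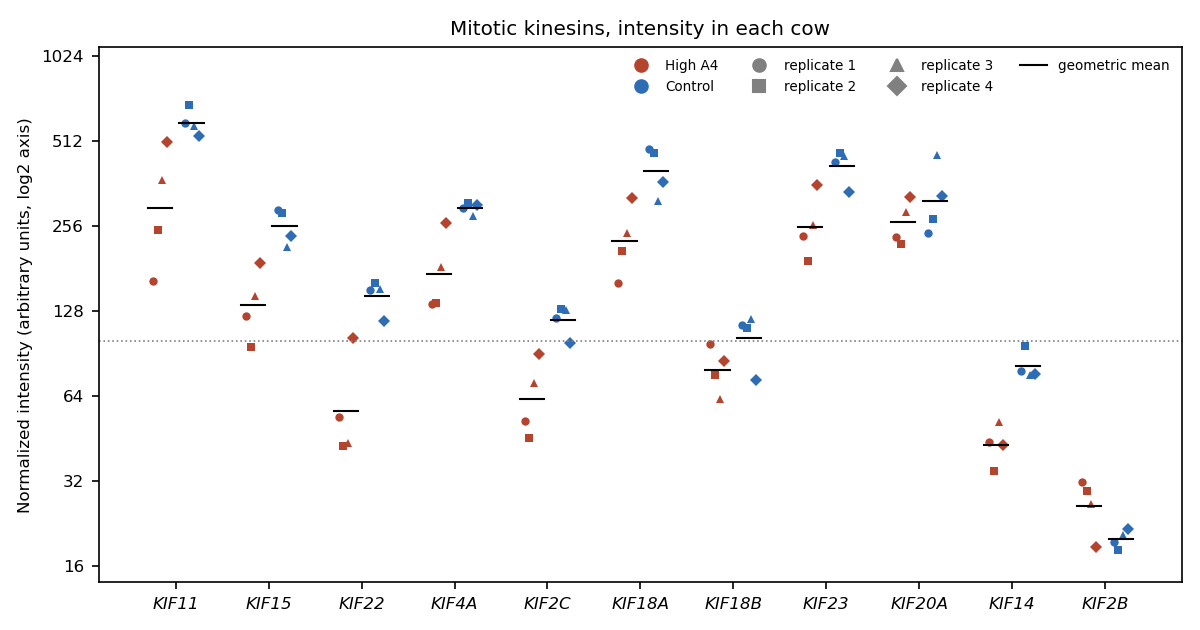
Normalized intensity (arbitrary units, log2 axis) of the 11 mitotic kinesins in each cow, High A4 left of Control, with the marker shape giving the replicate and the black line the geometric mean. The dotted line is the noise threshold of 100. In KIF11, KIF15, KIF22, KIF4A, KIF2C and KIF14 all 4 High A4 cows lie below all 4 Control cows, and KIF2B is the only one with a higher geometric mean in High A4.

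Motors that act on microtubule ends differed among themselves. KIF2C, the depolymerase of the centromere, had 52.3, 45.3, 71.2 and 90.2 in High A4, against 121, 130, 129 and 98.5 in Control, without overlap between the groups (log2 fold change -0.93 with a standard error of 0.21, adjusted p = 0.0584). KIF18A, which dampens the movements of chromosomes at the equator, had 161, 209, 242 and 322 in High A4, against 478, 463, 314 and 367 in Control. High A4 replicate 4 was above Control replicate 3, the lowest Control cow, and the log2 fold change of KIF18A was -0.82 with a standard error of 0.22 and an adjusted p of 0.0923. Its relative KIF18B, which limits astral microtubules, was 80.3 ± 14.9 in High A4 and 104 ± 21.3 in Control (SD over 4 cows in each group), a log2 fold change of -0.37 with an adjusted p of 0.286. KIF2B, a spindle depolymerase, was under the noise threshold with 31.8, 29.5, 26.5 and 18.7 in High A4, against 19.5, 18.2, 20.6 and 21.7 in Control. KIF2B was the only one of the 11 mitotic kinesins with a positive log2 fold change (0.39, adjusted p = 0.211 without the noise filter).

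Of the motors of cytokinesis, KIF23 and KIF14 had lower means in High A4 by a wider margin than KIF20A. KIF23, the motor subunit of centralspindlin, had 235, 193, 258 and 358 in High A4, against 432, 463, 453 and 338 in Control. High A4 replicate 4 exceeded Control replicate 4, so the groups overlapped (log2 fold change -0.72 with a standard error of 0.20, adjusted p = 0.0949). KIF14, which works at the midbody, was under the noise threshold in both groups and was not tested with the others. It had 44.1, 34.7, 51.9 and 42.8 in High A4, against 78.4, 96.1, 75.9 and 76.8 in Control. The groups of KIF14 did not overlap, and High A4 replicate 4 lay within the range of the other High A4 cows (log2 fold change -0.92, adjusted p = 0.00445 without the noise filter). KIF20A carries the chromosomal passenger complex to the central spindle. Its intensity was 235, 221, 286 and 324 in High A4, against 241, 270, 455 and 327 in Control. The groups of KIF20A overlapped broadly (log2 fold change -0.25, 95% confidence interval -0.73 to 0.22, adjusted p = 0.481). With 1 cow left out, the log2 fold change of KIF20A was between -0.38 (without Control replicate 1) and -0.08 (without Control replicate 3, its highest cow).

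In 5 of the 9 mitotic kinesins tested the 4 High A4 cows were all below the 4 Control cows, where 10.4% of all probe sets tested had that order. Over all members, 6 of the 11 mitotic, 2 of the 13 transport and 1 of the 11 other kinesins had it, against 5.71% of all probe sets measured. None of the 35 had the opposite order, which 11.2% of all probe sets measured had. Without the noise filter, 7 of the 11 mitotic kinesins (KIF14, KIF22, KIF15, KIF2C, KIF4A, KIF18A and KIF23) and KIF24 were lower at an adjusted p under 0.05 by limma, where 1.64% of all 26773 probe sets were lower and 8.47% were higher.

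The 8 transport kinesins tested had log2 fold changes from -0.44 to -0.03. KIF5B, the conventional kinesin heavy chain of most tissues, had 1142, 1248, 1431 and 1389 in High A4, against 1408, 1532, 1469 and 1654 in Control. Its groups overlapped, and the log2 fold change was -0.22 (95% confidence interval -0.51 to 0.06, adjusted p = 0.318). KIF1B carries mitochondria and vesicles along axons. It had 248, 297, 246 and 285 in High A4, against 329, 327, 363 and 312 in Control. The High A4 cows were below the Control cows by a small margin (log2 fold change -0.31 with a standard error of 0.12, adjusted p = 0.196). KIF1C, a carrier of integrins, had 118, 110, 96.3 and 84.6 in High A4, against 140, 131, 127 and 155 in Control. KIF1C also did not overlap between groups and had the lowest log2 fold change of the transport kinesins tested (-0.44, standard error 0.14 and adjusted p = 0.135). High A4 replicate 4, the highest High A4 cow in most mitotic kinesins, was the lowest for KIF1C.

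The other kinesin-3 carriers were nearer to the Control level. KIF13A, which moves recycling endosomes, had 204, 201, 151 and 159 in High A4, against 207, 190, 197 and 186 in Control. Its log2 fold change was -0.14 (95% confidence interval -0.45 to 0.18). KIF13B had -0.03 (-0.35 to 0.28) and KIF16B, a carrier of early endosomes, -0.22 (-0.55 to 0.11). Both subunits of heterotrimeric kinesin-2, which serves cilia and vesicle transport, had small differences, with -0.10 for KIF3A (-0.47 to 0.28) and -0.10 for KIF3B (-0.36 to 0.16). These 5 intervals, at 95% confidence on the log2 scale, include 0, and their adjusted p were 0.385 to 0.906. The signs of KIF13A, KIF13B, KIF3A and KIF3B turned positive after quantile normalization or cyclic loess, and when each array was centred on the median of the probe sets tested. KIF3C, KIF17, KIF1A, KIF5C and KIF5A were under the noise threshold in both groups. KIF5A and KIF5C are the neuronal forms of the conventional heavy chain, and the 5 genes had log2 fold changes from -0.01 (KIF3C) to 0.20 (KIF5A).

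**Figure D3:**
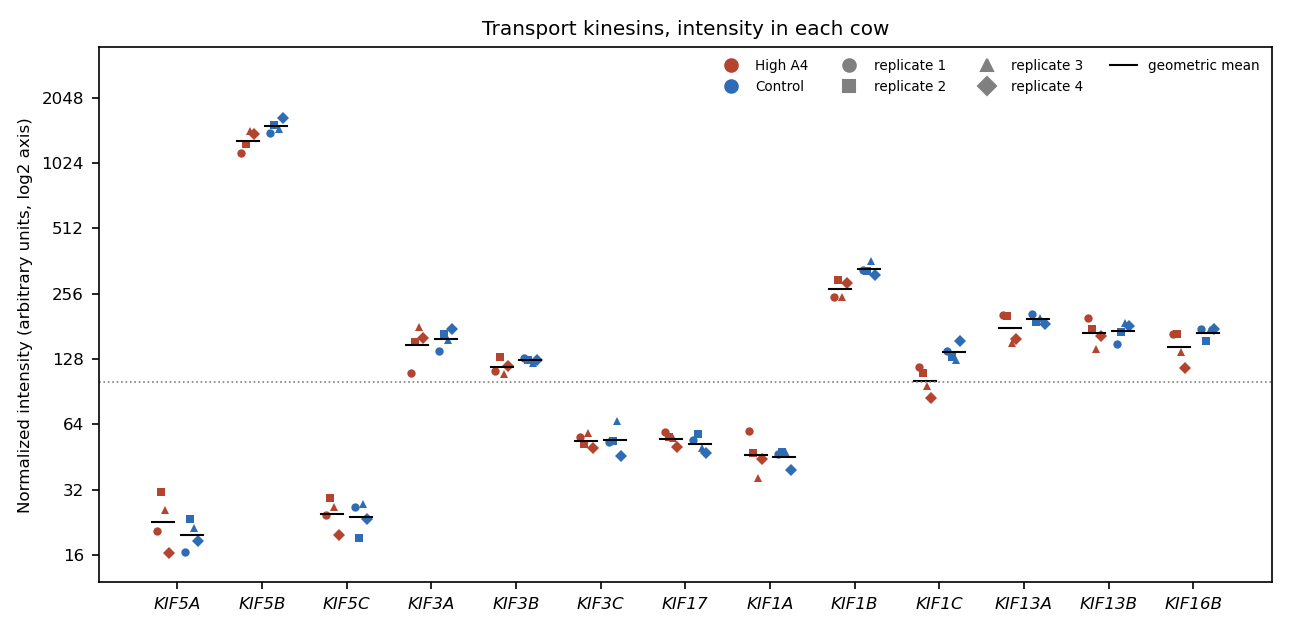
Normalized intensity (arbitrary units, log2 axis) of the 13 transport kinesins in each cow, High A4 left of Control, with the marker shape giving the replicate and the black line the geometric mean. The dotted line is the noise threshold of 100. KIF1B and KIF1C alone have all 4 High A4 cows below all 4 Control cows.

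Of the 11 kinesins with other roles, 3 were above the noise threshold. KIF2A, a depolymerase of neurons and spindle poles, had 452, 480, 607 and 649 in High A4, against 577, 645, 549 and 760 in Control (log2 fold change -0.22, 95% confidence interval -0.58 to 0.15). Although KIF2A also works at spindle poles, it was placed in this class, so the counts and medians of the mitotic kinesins leave it out. KIF27, a kinesin of motile cilia, had 55.8, 62.8, 151 and 153 in High A4, against 101, 102, 78.5 and 131 in Control. The High A4 cows formed a low and a high pair on either side of the Control cows, and the log2 fold change of KIF27 was -0.10 (95% confidence interval -0.86 to 0.67). KIF21B, which paces microtubule growth, was 85.4 ± 14.5 in High A4 and 115 ± 18.3 in Control (SD over 4 cows in each group), a log2 fold change of -0.43 with an adjusted p of 0.196. KIF24, a depolymerase of the mother centriole, was under the noise threshold with 38.8, 38.9, 46.1 and 60.4 in High A4, against 76, 91.1, 77.4 and 75.5 in Control. Its groups did not overlap (log2 fold change -0.82, adjusted p = 0.0125 without the noise filter). The remaining 7 were under the threshold, with log2 fold changes from -0.34 for KIF19, which limits the length of cilia, to 0.22 for KIF26B, a motor-like protein without ATPase activity. KIF7, a regulator of Hedgehog signalling, KIF9, KIF12, KIF25 and KIF26A lay between them, and none of the 7 passed without the noise filter (adjusted p = 0.237 to 0.855).

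The High A4 cows differed among themselves in their mitotic kinesins. Relative to each gene's Control mean, their median log2 intensity was -1.13, -1.12, -0.72 and -0.27 in High A4 replicates 1, 2, 3 and 4, against 0.05, 0.15, 0.08 and -0.16 in Control replicates 1, 2, 3 and 4. High A4 replicate 4 lay near Control replicate 4, and High A4 replicates 1 and 2 lay farthest from Control. For the transport kinesins the medians were -0.19, -0.04, -0.28 and -0.17 in High A4, against 0.01, -0.01, 0.00 and 0.06 in Control. Over all probe sets tested they were -0.23, -0.16, -0.17 and -0.05 in High A4, against -0.03, 0.02, 0.00 and 0.02 in Control. The difference between the mitotic and the transport median was -0.94, -1.08, -0.43 and -0.09 in High A4, against 0.04, 0.16, 0.09 and -0.22 in Control. High A4 replicate 4 was thus within the range of the Control cows in this difference, and the other High A4 cows were below it. In 8 of the 9 mitotic kinesins tested and in none of the 8 transport kinesins the highest High A4 cow was replicate 4, where this held for 39.4% of all probe sets tested. The SD of log2 intensity had a median over the mitotic kinesins of 0.419 in High A4 and 0.21 in Control, and it was larger in High A4 for 7 of the 9, where 70.5% of all probe sets tested had the larger SD in High A4. The wider spread was not particular to the mitotic class. Over the transport kinesins the median SD was 0.204 in High A4 and 0.0956 in Control. It was larger in High A4 for all 8 of them and for all 3 other kinesins tested.

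**Figure D4:**
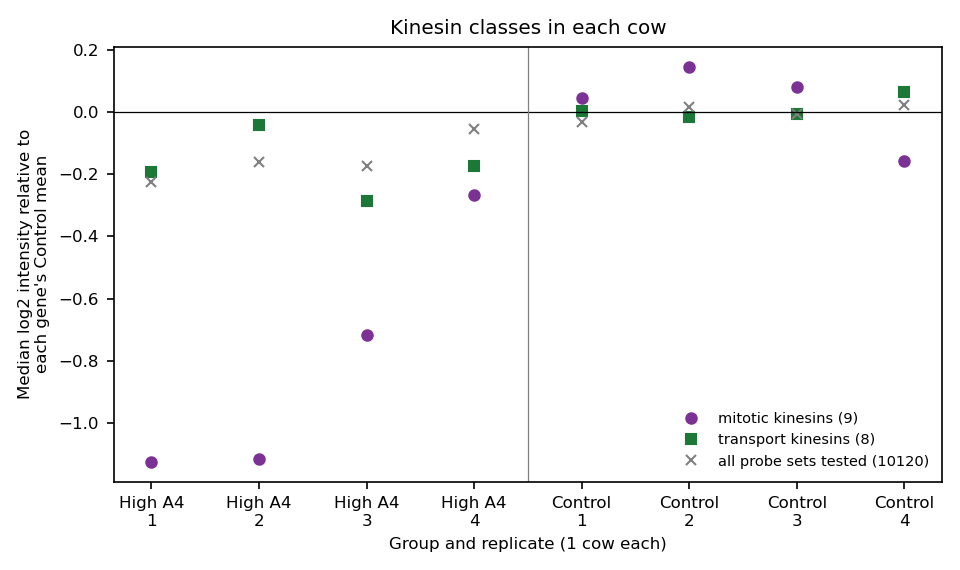
Median log2 intensity of the 9 mitotic kinesins, the 8 transport kinesins and all 10120 probe sets tested, in each cow relative to each gene's Control mean, with High A4 cows on the left. The mitotic median is -1.13, -1.12, -0.72 and -0.27 in High A4 replicates 1 to 4, and the transport median stays between -0.28 and 0.06 in all 8 cows.

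Without High A4 replicate 4, 7 of the 9 mitotic kinesins passed (KIF22, KIF4A, KIF2C, KIF15, KIF23, KIF11 and KIF18A), where 5.63% of all probe sets tested in that fit were lower, and no transport kinesin did. With each array weighted by how closely it followed its group, 8 of the 9 mitotic kinesins and 1 transport kinesin (KIF1C) passed, where 9.28% of all probe sets were lower. Without High A4 replicate 1, 2 or 3 or Control replicate 1, 2 or 3, no kinesin passed in limma. The median of the mitotic kinesins tested stayed between -0.99 and -0.68 with any 1 cow left out, and the difference from the transport median between -0.87 and -0.50.

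**Figure D5:**
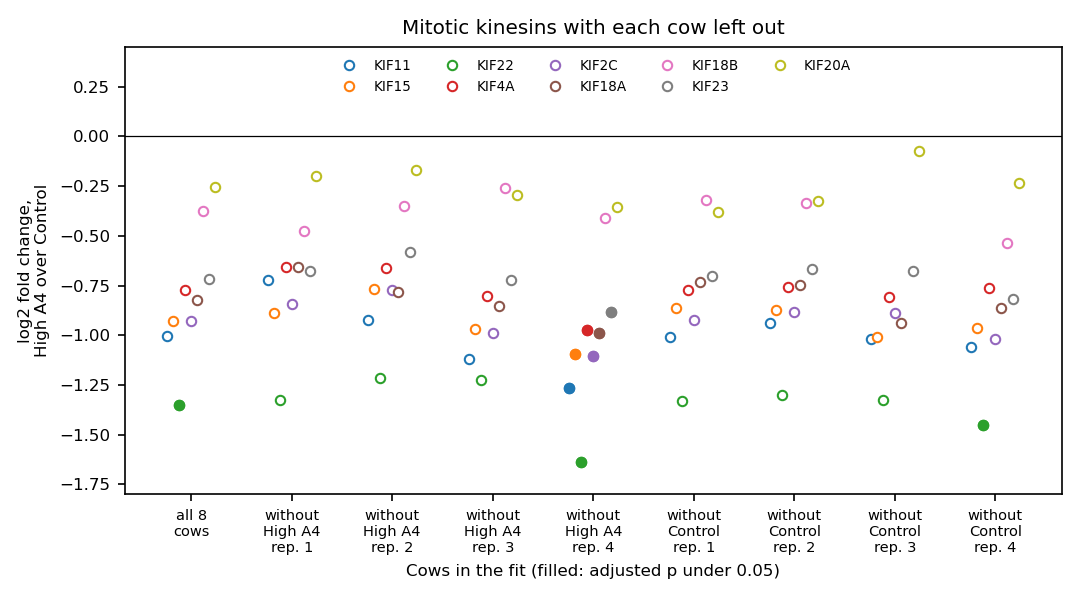
Log2 fold change (High A4 over Control) of the 9 mitotic kinesins above the noise threshold with all 8 cows and with each cow left out, where filled points have an adjusted p under 0.05 from limma. KIF18B has no point without Control replicate 3, because it was then under the noise threshold. KIF22 alone is filled with all 8 cows, and 7 genes are filled without High A4 replicate 4.

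Kinesins outside the KIF number scheme and proteins that work with kinesins were described beside them. CENPE, the kinesin that carries chromosomes along microtubules to the equator, was 277 ± 112 in High A4 and 435 ± 19.2 in Control (SD over 4 cows in each group), a log2 fold change of -0.73 with an adjusted p of 0.134. KIFC1, a minus-end motor of the spindle, had a log2 fold change of -0.31 (adjusted p = 0.298). Of 14 partners of mitotic kinesins, none passed in limma, and 10 were lower and none higher at an unadjusted p under 0.05 (all probe sets tested, 17.1% lower). Without the noise filter 5 of the 14 were lower at an adjusted p under 0.05 (TPX2, AURKB, HMMR, CDCA8 and ECT2), against 1.64% of all probe sets. Their median log2 fold change was -0.72. TPX2, which regulates KIF11 on the spindle, was 245 ± 72.2 in High A4 and 429 ± 15.9 in Control (SD over 4 cows in each group), a log2 fold change of -0.85 with an adjusted p of 0.053. AURKB, the kinase of the chromosomal passenger complex, had -0.77 (adjusted p = 0.0642), and CIT, the kinase that binds KIF14, was the only partner with a positive value (0.37, adjusted p = 0.354). Among the 14 transport kinesin partners tested no gene passed in limma, and 2 were lower at an unadjusted p under 0.05 (all probe sets tested, 17.1%), the scaffold MAPK8IP1 (log2 fold change -0.53, adjusted p = 0.186) and the kinesin-binding protein KIFBP (-0.36, adjusted p = 0.201). Their median was -0.25, and the light chain KLC1 (-0.26) and the adaptor KIFAP3 (-0.08) did not pass.

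Some markers of cells around the granulosa layer also differed between the groups. Of 10 theca cell markers 5 were above the noise threshold and 2 rose (CYP17A1 and ALDH1A1), where 1.56% of all probe sets tested rose. A negative log2 fold change was found in 2 of the 5 tested (PTCH1 and NR2F2) and in 4 of the 10 measured. The summed intensity of the 10 was 2051 to 4815 in High A4 and 1009 to 1856 in Control. Of the 4815, in High A4 replicate 1, INSL3 gave 2203 and CYP17A1 1772. Of 16 stromal cell markers 6 were above the threshold and 2 rose (OGN and DCN), with a summed intensity of 2859 to 4671 in High A4 and 1534 to 3513 in Control. ALDH1A1 (mean 189 in High A4 and 53.2 in Control) and OGN (107 and 37.5) were above the noise threshold only in High A4. Their place among the genes tested thus depended on the higher group. Without the noise filter COL3A1, COL1A2, EMCN and RGS5, all under the threshold, were also higher in High A4 at an adjusted p under 0.05 by limma. In that fit 4 of 16 stromal, 2 of 10 theca, 1 of 13 endothelial and 1 of 9 smooth muscle and pericyte markers were higher. The share of all probe sets was 8.47%, and the endothelial and pericyte counts were near it. MCAM, the only smooth muscle and pericyte marker above the threshold, had a log2 fold change of -0.50 (adjusted p = 0.197). ENG, the only endothelial marker above it, had 0.69 (adjusted p = 0.130). The mean of ENG was above the threshold only in High A4 (125, against 76.9 in Control). In High A4 replicates 1 to 4 the summed stromal intensity was 3547, 4324, 4671 and 2859, and the summed theca intensity was 4815, 2782, 2051 and 2386. Replicate 3 was thus the highest High A4 cow for the stromal sum and the lowest for the theca sum. Of 13 endothelial, 9 smooth muscle and pericyte, 16 leukocyte and 7 luteal markers, 1, 1, 0 and 7 were above the noise threshold and none of those tested passed in limma. The groups did not overlap in the summed intensity of luteal markers (14434 to 15216 in High A4 and 9230 to 13845 in Control). CYP11A1, LHCGR and HSD3B1 weigh most in that sum. Of the 7 luteal markers 3 had a negative log2 fold change and 4 a positive one. At an unadjusted p under 0.05 by limma 2 were higher and 1 lower (all probe sets tested, 4.83% higher and 17.1% lower). The higher ones were CYP11A1 (log2 fold change 0.48, adjusted p = 0.142) and LHCGR (0.56, adjusted p = 0.157). The lower one was PTGFR (-1.13, adjusted p = 0.177). The endothelial sums almost met (502 to 597 in High A4 and 415 to 500.2 in Control). As single genes, 0 of 7 luteal and 1 of 13 endothelial markers had every High A4 cow above every Control cow. The count was 3 of 10 for theca and 5 of 16 for stromal markers. It was 1 of 9 for smooth muscle and pericyte, 1 of 16 for leukocyte and 1 of 16 for granulosa markers (INHBA). That order held for 11.2% of all probe sets measured. The summed intensity of the 16 granulosa cell markers was 39908 to 43207 in High A4 and 37697 to 41231 in Control. The part of these markers in the kinesin differences was not tested.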

How the data were processed

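Normalized intensity in linear units was deposited for each array. Its normalization was Robust Multi-Array Averaging by the paper and GCRMA in Affymetrix Expression Console by the submitters' processing notes, with the choice, versions and scan batches not stated. Log2 intensities were compared by limma 3.58.1 in R 4.3.3 (adjusted p by Benjamini and Hochberg over all probe sets tested, threshold 0.05), the source of each adjusted p unless the analysis of variance is named. Of the probe sets, 18457 carry a single symbol in the platform annotation, 688 carry several and 7628 are unnamed here. All 35 kinesin symbols occur in the RefSeq assembly ARS-UCD2.0, 31 of them matched by gene ID. The probe set of KIF20B names a second gene and was left out, and KIF4B, KIF6 and KIF21A were not analysed here. Kinesins, classes, partner and marker lists were chosen with earlier results of these data known. All kinesins were named, those passing, without overlap or brightest in a class with values per cow. From other lists, genes that passed or up to 2 with the lowest p were named. Also named, and chosen after their values were seen, were CIT, KIFC1, KLC1, KIFAP3, INSL3, PTCH1, NR2F2, PTGFR, HSD3B1 and those passing only without the noise filter. Lists were described by counts and medians. Other filters, scalings, weights and tests and leaving out each cow were tried. The number of arrays limits the precision.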

Additional observations from a re-analysis of the deposited data

Results flagged for a closer look

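In KIF16B, Control replicate 2 had an intensity of 155, and the other Control cows had 174 to 176. On the log2 scale its gap to the nearest cow was 0.904 of the range of the Control group. In KIF18B, Control replicate 4 had 73, and the other Control cows had 111 to 120, a gap of 0.853 of the range on the log2 scale. Both exceed Dixon's critical value for 4 samples on that scale. On the intensities themselves the gaps were 0.898 and 0.82 of the range, and that of KIF18B was below the critical value. Chance gives about 1 in 20 groups, and 40 groups of 20 kinesins were looked at. Without the outlying cow, the log2 fold change of KIF16B was -0.27 (adjusted p = 0.476) and that of KIF18B -0.54 (adjusted p = 0.172).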

How the results depend on the processing

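The mitotic median stayed negative under every alternative tried (-0.99 to -0.62), as did its difference from the transport median (-0.87 to -0.49). The transport median was -0.10 without the noise filter, -0.0167 after quantile normalization, -0.00694 after cyclic loess and -0.0192 with each array centred on the median of the probe sets tested (chosen after seeing the data). The mitotic kinesins called lower numbered 7 without the noise filter, 8 with array weights (where 1 transport kinesin, KIF1C, was called too), 0 in an analysis of variance without moderation and 0 to 7 with 1 cow left out. The other kinesins called lower numbered 1 (KIF24) without the noise filter. KIF22 passed in 12 of 20 alternatives, with an adjusted p of 0.148 in the analysis of variance. Of the 12, averaging the probe sets of a gene could not differ from the main fit, since each kinesin had 1. Over all probe sets tested, 63 were lower and 158 higher. Lower ones numbered 440 without the noise filter, 17 with a mean over all 8 arrays above 100, 19 with quantile normalization, 18 with cyclic loess, 939 with array weights, 24 in the analysis of variance, 19 with centring on the probe sets tested and 9 to 575 with 1 cow left out. Higher ones numbered 2267, 68, 328 and 96 without the filter, with the mean over 8 arrays, with array weights and in the analysis of variance, and 114 to 302 with 1 cow left out.

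KIF2C and KIF18B were not tested with a mean over all 8 arrays above 100. Signs turned in 5 genes that did not pass. With quantile normalization, cyclic loess and centring on the probe sets tested, the log2 fold changes were 0.0263, 0.0396 and 0.0234 for KIF13A, 0.133, 0.142 and 0.129 for KIF13B, 0.0523, 0.0709 and 0.0633 for KIF3A and 0.0451, 0.0493 and 0.0613 for KIF3B. KIF27 had 0.0238 with cyclic loess, 0.0646 with that centring and 0.172 with array weights, where KIF3A had 0.0281. With 1 cow left out, KIF13B ranged from -0.106 to 0.0508, KIF27 from -0.326 to 0.160 and KIF3A from -0.188 to 0.0471.

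The replicate numbers name different cows. Same-numbered deviations from the group means correlated at 0.189, -0.224, -0.113 and 0.203. With the replicate number as a block, 0 mitotic kinesins and 25 of all probe sets tested were lower, and the adjusted p of KIF22 was 0.0915. Averaging the probe sets of a gene changed nothing, since each kinesin had 1. The causes of these changes were not tested.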
